A study of Homo sapiens with 12 samples.

Results

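The genes described here are the nuclear-encoded subunits and assembly factors of the respiratory chain and the ATP synthase, chosen by symbol alone from the RNA-Seq count table of 4 HEK293T lines. A gene was a member if its symbol began with NDUF, UQCR, SDHAF, COX and a digit, or ATP5, or was SDHA, SDHB, SDHC, SDHD, CYC1 or CYCS, and antisense symbols were left out. The rule found 102 of 14438 genes, of which 101 were among the 14263 genes tested. By function they comprised 45 genes of complex I, 8 of complex II, 10 of complex III, cytochrome c itself, 23 of complex IV and 15 of complex V. HEK293T is a human embryonic kidney cell line, and each line carried a lentiviral construct and was kept under blasticidin selection for 10 days. The control line carried EZH2 WT, the H3K27 methyltransferase in its normal form. A pair of lines carried a gain-of-function (GOF) mutant, EZH2 Y641F in the first and EZH2 A677G in the second, and the last carried the loss-of-function (LOF) double mutant EZH2 H689A/F667I. Each line was sampled as 3 biological replicates, 12 samples in all. The constructs were added to cells that keep their own EZH2 gene, so each mutant acts beside the endogenous enzyme.

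Complexes I and II pass electrons from NADH and succinate to ubiquinone, complex III passes them on to cytochrome c, and complex IV, cytochrome c oxidase, reduces oxygen. Complexes I, III and IV pump protons, and the ATP synthase, complex V, uses the resulting gradient to make ATP. Most subunits are encoded in the nucleus and a few in mitochondrial DNA, and assembly factors insert cofactors or hold partly built modules without being part of the finished enzyme. The study considered mitochondrial electron transport and NAD+ metabolism in cells with EZH2 mutants, and the comparisons below cover the transcripts of the chain.

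Total counts per sample ranged from 32137700 to 44562413, and the members took between 1.117% and 1.157% of them. EZH2 itself, whose count joins the endogenous gene and the construct, had a CPM (its counts scaled to a common library size, TMM-normalized) of 158 ± 4.32 in the control line, 218 ± 9.61 with Y641F, 173 ± 8.57 with A677G and 208 ± 2.03 with H689A/F667I (SD, n = 3). Of the markers used for HEK293T, VIM, KRT18, NEFM, NEFL and CDH2 were at 29.8 CPM or higher in every sample. The neurofilament genes NEFM and NEFL differed between lines, with means of 185 and 133 CPM in the control line, 126 and 79 with Y641F, 91 and 73.1 with A677G and 145 and 115 with H689A/F667I, and their part in the results was not tested. KRT8 lay between 3.37 and 5.35 CPM, and PAX2 reached at most 0.594 CPM and was at 0 in EZH2 A677G. COL1A1, a gene that should be low, reached 9.72 CPM. Replicate 2 of EZH2 Y641F stood apart within its line for the genes described here. Their median log2 difference from the EZH2 WT mean was 0.052 in that sample and -0.030 and -0.040 in the other replicates. These values follow TMM scaling, with factors of 1.022, 0.9816 and 1.016 for replicates 1, 2 and 3 of EZH2 Y641F. Before scaling, the members took 1.136%, 1.143% and 1.117% of the counts, and the part of the scaling was not tested. Counts of called members are given with and without replicate 2 of EZH2 Y641F, while the values by complex and for the catalytic cores are given only with it.

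Most members were well expressed. Their mean level had a median of 86.0 CPM, against 24.5 CPM over all genes tested, and 96 of 102 were above 10 CPM. Per kilobase of transcript, which allows levels of different genes to be compared, the highest was ATP5B, the catalytic beta subunit of F1, with 554 CPM per kb. It was followed by UQCRH, the hinge protein of complex III, with 487 CPM per kb and CYCS, the mobile electron carrier, with 403 CPM per kb. Levels differed widely within a complex. The 7 nuclear core subunits of complex I lay between 58.1 CPM per kb for NDUFS7 and 165 CPM per kb for NDUFS8, a 2.84-fold range, while its 30 accessory subunits spanned a 32.8-fold range. These values depend on the length used, a median over annotated transcripts. The lowest accessory subunit, NDUFV3, had 46.5 CPM over 5200 bases. Before division by length, the accessory subunits lay between 31.1 and 183 CPM and the core subunits between 61.6 and 168 CPM. The 11 ubiquitous subunits of complex IV had a median of 233 CPM per kb, and its 10 assembly and supercomplex factors one of 19.5 CPM per kb. Assembly factors of complex I likewise had a median of 17.6 CPM per kb against 94.7 for its accessory subunits. The lowest genes were COX6B2, an isoform of testis, at 0.13 CPM per kb, NDUFA4L2, a relative of NDUFA4 known as a hypoxia-induced gene, at 0.513 CPM per kb, and the assembly factor COX20 at 0.879 CPM per kb.

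**Figure D1:**
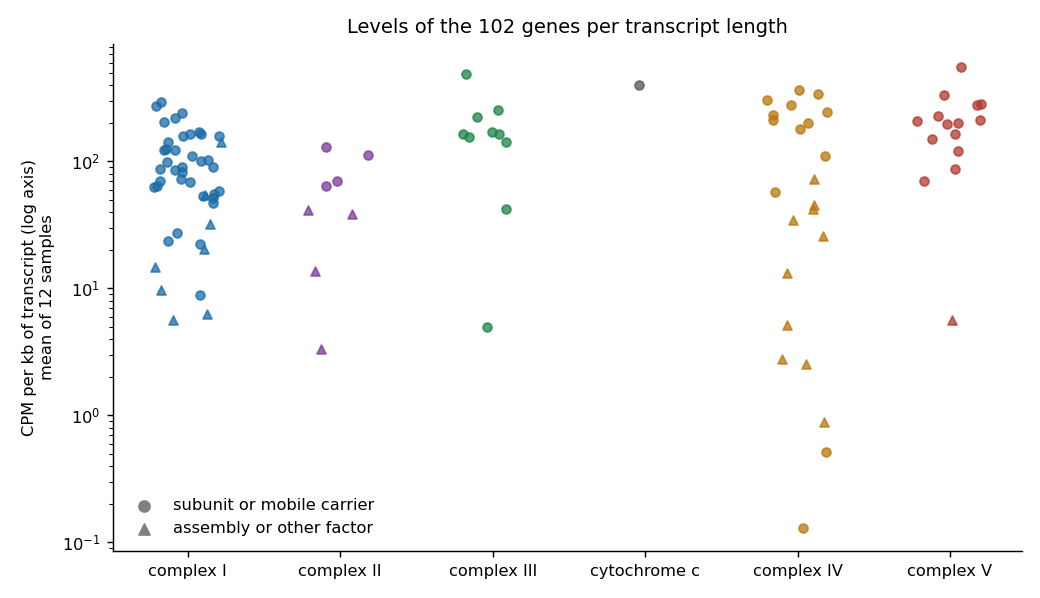
Mean level of each of the 102 genes over 12 samples, in CPM per kilobase of transcript on a log axis, by complex; circles are subunits or the mobile carrier and triangles assembly or other factors. ATP5B is the highest point at 554 CPM per kb, and COX6B2 the lowest at 0.13 CPM per kb.

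Against EZH2 WT, 0 of 101 members passed an adjusted p of 0.05 in any of the 3 mutant lines (edgeR's quasi-likelihood test, adjusted over all genes tested), and the differences were small. For EZH2 Y641F the members had a median log2 fold change of -0.015, with 43 genes above and 58 below 0, and it ranged from -0.0337 to 0.0112 with 1 replicate left out. In EZH2 A677G it was 0.023, with 69 above and 32 below, and in the LOF line 0.021, with 63 above and 38 below. Over all genes tested the medians were 0.003, 0.005 and 0.002. With 1 replicate left out, the median ranged from 0.017 to 0.0261 in EZH2 A677G and from -0.00151 to 0.026 in the LOF line, with the lowest value when replicate 1 of the LOF line was left out. By sample, the members' median difference from the EZH2 WT mean lay between -0.00221 and 0.0112 in EZH2 WT, between 0.0224 and 0.0242 in EZH2 A677G, and between 0.00225 and 0.0463 in the LOF line. The A677G samples were thus above those of EZH2 WT and close together, while the LOF samples overlapped EZH2 WT. These comparisons share the EZH2 WT samples and are given side by side, not as separate evidence.

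The intervals show what size of change the data leave room for. In each of the 3 lines, the 95% interval of the fold change lay within 1.25-fold of EZH2 WT in either direction for 96 of 101 members, where 63.2% (Y641F), 62.6% (A677G) and 66.9% (H689A/F667I) of all genes did so. The median standard error of the members was 0.0455 in both GOF lines, against 0.0704 and 0.0705 over all genes. The interval lay within 1.1-fold for 58 members with Y641F, 55 with A677G and 58 with H689A/F667I, and for the rest it reached past 1.1-fold. The intervals of COX20, NDUFA4L2 and SDHAF4 reached past 1.5-fold in all 3 lines, and these genes were among the members with the fewest counts.

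**Figure D2:**
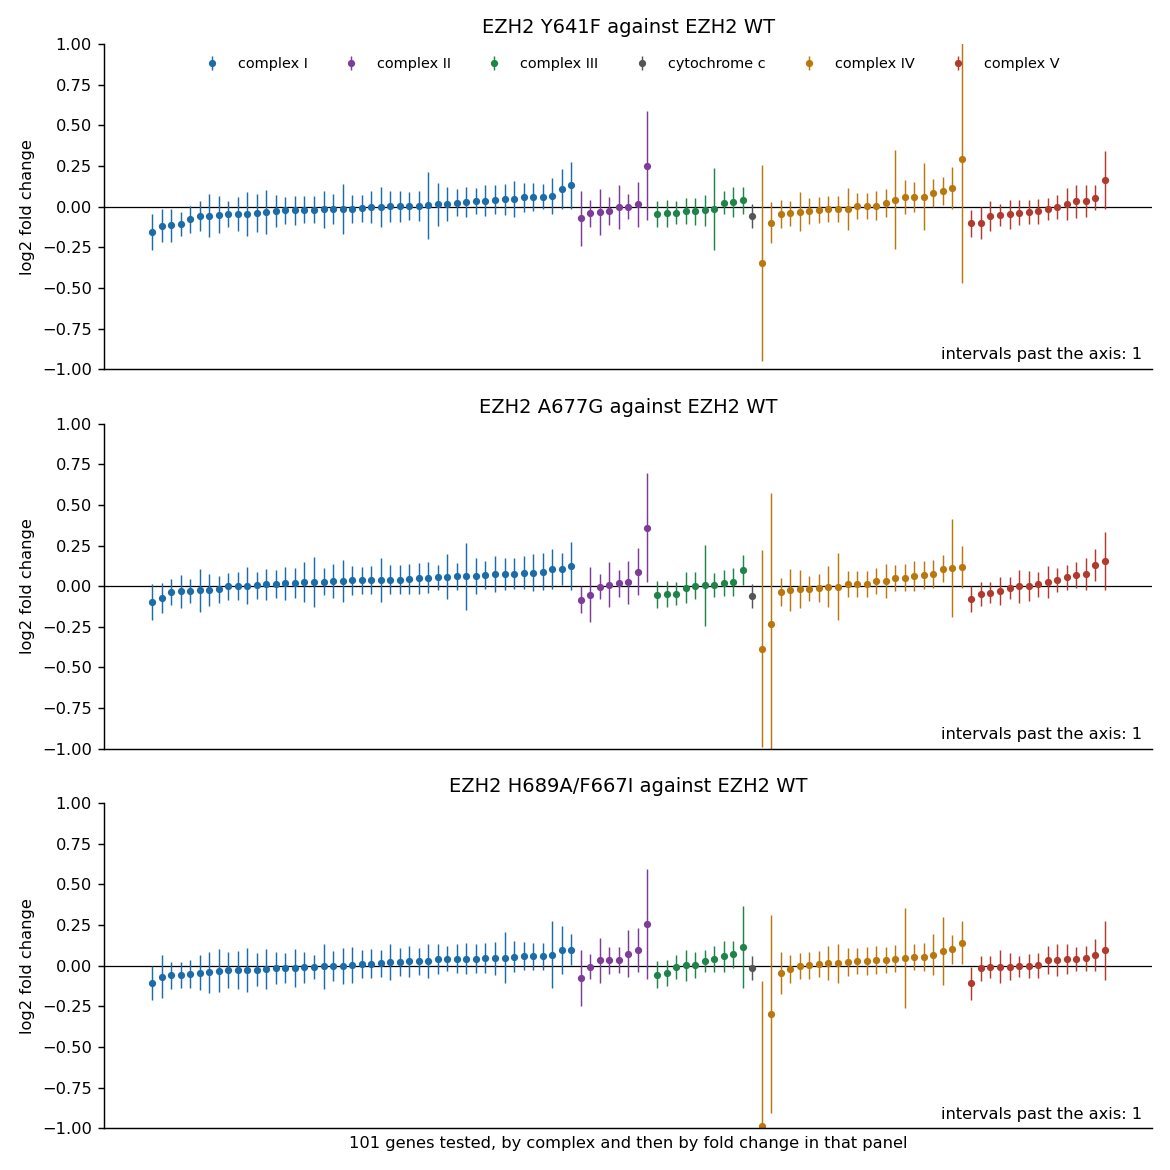
Log2 fold change of the 101 genes tested against EZH2 WT, with 95% intervals, with 1 panel per mutant line; colours are the complexes, and genes are sorted within each complex. Most points lie within 0.1 of 0 (88, 89 and 93 genes), and 1 interval per panel, that of NDUFA4L2, runs past the axis, with its point at the lower edge in the LOF panel.

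In EZH2 Y641F, 7.68% of all genes tested were called, 298 higher and 797 lower, against 0 of 101 members. At an unadjusted p under 0.05 the members numbered 7, of which 1 was higher and 6 lower, where 19.2% of all genes passed. Replicates of the 2 lines did not overlap for 8 members, 7.92% of them, against 20.9% of all genes. With limma voom and sample quality weights there was 1 call, with DESeq2 1 and with the exact test of edgeR 0. Of all genes, these called 7.52%, 8.36% and 7.2%. The members with the smallest p, named after their values were seen, were NDUFB10, an accessory subunit in the membrane arm of complex I, and NDUFAF4, a complex I assembly factor. On GRCh38 NDUFB10 lies at chr16:1959538-1961975, plus strand (gene positions are those of GENCODE 44). NDUFB10 was at 191, 190 and 182 CPM in EZH2 WT and at 176, 177 and 170 CPM in EZH2 Y641F. The replicates did not overlap, and the log2 fold change was -0.11 (SE 0.037, adjusted p = 0.0708, edgeR). It was called by DESeq2, by limma voom and with upper-quartile factors, with log2 fold changes of -0.105, -0.116 and -0.121. Over 26 alternatives the NDUFB10 value ranged from -0.138 to -0.0612, with adjusted p from 0.00706 to 0.337 by the test of each setting. NDUFAF4 was at 49.3, 52.7 and 53.9 CPM in EZH2 WT and at 44.4, 50.3 and 45.4 CPM in EZH2 Y641F. Replicate 2 of EZH2 Y641F lay within the EZH2 WT range, and the log2 fold change was -0.155 (SE 0.0547, adjusted p = 0.0786, edgeR). Without replicate 2 of EZH2 Y641F, 3 members were called, all lower (ATP5G3, NDUFAF4 and NDUFS3), and without replicate 3 there was 1, COX8A, higher. In these fits 7.1% and 5.71% of all genes were called.

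In EZH2 A677G, 8.55% of all genes tested were called, 295 higher and 924 lower, against 0 of 101 members. At an unadjusted p under 0.05 there were 6 members, 5 higher and 1 lower, where 20.4% of all genes passed. Replicates did not overlap with EZH2 WT for 23 members, 22.8% of them, 18 higher and 5 lower, against 27.2% of all genes. The exact test called 2 members, ATP5H and COX8A, limma voom called 1, ATP5H, and DESeq2 called 0. Of all genes, these called 13%, 12.7% and 9.02%. ATP5H, subunit d of the peripheral stalk of the ATP synthase (current symbol ATP5PD, chr17:75038863-75046985, minus strand), was at 77.4, 85.3 and 88.8 CPM in EZH2 WT and at 89.7, 95.1 and 90.1 CPM in EZH2 A677G. The lowest EZH2 A677G sample and the highest EZH2 WT sample were close, and the log2 fold change was 0.13 (SE 0.0482, adjusted p = 0.0945, edgeR). COX8A, a small subunit of cytochrome c oxidase (chr11:63974620-63976543, plus strand), was at 132, 134 and 127 CPM in EZH2 WT and at 141, 140 and 144 CPM in EZH2 A677G. These did not overlap, with a log2 fold change of 0.11 (SE 0.0422, adjusted p = 0.114, edgeR), while in EZH2 Y641F COX8A spread from 129 to 149 CPM and overlapped EZH2 WT. Without replicate 3 of EZH2 WT, ATP5H was called in EZH2 A677G, where 7.31% of all genes were called. Both genes were named after their values were seen. Over 26 alternatives the log2 fold change ranged from 0.073 to 0.189 for ATP5H and from 0.0612 to 0.171 for COX8A. Adjusted p by the test of each setting ran from 0.00524 to 0.517 and from 0.00307 to 0.362.

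In the LOF line, 0.301% of all genes were called, 20 higher and 23 lower, and 0 of 101 members. DESeq2, limma voom and the exact test each gave 0 members as well, where they called 0.442%, 0.694% and 1.03% of all genes. At an unadjusted p under 0.05 there were 6 members, 3 higher and 3 lower, against 8.3% of all genes, and replicates did not overlap with EZH2 WT for 12 members, 11.9%, against 15% of all genes. The smallest p belonged to NDUFA4L2, whose counts were 15, 20 and 23 in the control line, 19, 33 and 28 with Y641F, 13, 22 and 20 with A677G and 10, 7 and 12 in the LOF line. In CPM the LOF samples were at 0.271, 0.178 and 0.372, below every EZH2 WT sample, the lowest of which was at 0.406, but replicate 1 of EZH2 A677G, at 0.292, lay among them. The log2 fold change was -0.985 (SE 0.441, 95% interval -1.88 to -0.09, adjusted p = 0.522, edgeR), a wide interval that rests on few reads.

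The complex I subunits NDUFA13, NDUFB1 and NDUFV2 were followed by name because the study names them. NDUFA13, an accessory subunit also known as GRIM-19 (chr19:19515736-19529054, plus strand), was at 119, 119 and 109 CPM in the control line, 118, 122 and 107 CPM with Y641F, 126, 124 and 123 CPM with A677G and 127, 111 and 119 CPM in the LOF line. Its EZH2 A677G samples were above all EZH2 WT samples, with a log2 fold change of 0.11 (95% interval 0.01 to 0.20, adjusted p = 0.184, edgeR), and the other lines overlapped EZH2 WT. NDUFB1, an accessory subunit of the membrane arm, was at 38.9, 41.6 and 41.7 CPM in EZH2 WT. It was at 45.5, 41.8 and 40.2 CPM in EZH2 Y641F, 39.5, 40.9 and 42.1 CPM in EZH2 A677G and 42.7, 40.8 and 40.5 CPM in the LOF line, with all lines overlapping. NDUFV2, a core iron-sulfur subunit of the NADH-oxidising module, was at 69.3, 70.6 and 75.5 CPM in EZH2 WT and at 78.4, 79.2 and 72.9 CPM in the LOF line, where its log2 fold change was 0.10 (95% interval 0.00342 to 0.20, adjusted p = 0.576, edgeR). In EZH2 Y641F it was at 71.7, 76.7 and 72.3 CPM and in EZH2 A677G at 73.1, 78.0 and 72.3 CPM. Each of these lines overlapped EZH2 WT.

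By complex, the median log2 fold change in EZH2 Y641F was -0.011 for complex I, -0.016 for complex II, -0.026 for complex III, 0.003 for complex IV and -0.030 for complex V. The corresponding medians with A677G were 0.036, 0.013, 0.004, 0.014 and 0.011, and with H689A/F667I 0.013, 0.034, 0.018, 0.032 and 0.002. In complex I, 36 of 45 genes were above 0 in EZH2 A677G and 20 of 45 in EZH2 Y641F. Summed over its genes, complex I was at 3520 ± 25.9 CPM in the control line, 3495 ± 116 with Y641F, 3585 ± 13.2 with A677G and 3546 ± 74.9 with H689A/F667I (SD, n = 3). Complex V was at 3355 ± 15.1, 3280 ± 89.8, 3327 ± 14.6 and 3364 ± 60.7 CPM in the same order, and the spread was again largest in EZH2 Y641F, whose replicate 2 had the highest sum of that line. All 5 were above 0 in replicate 2 of EZH2 Y641F, replicate 3 of EZH2 A677G and replicate 1 of the LOF line, and all 5 were below 0 in replicates 1 and 3 of EZH2 Y641F.

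**Figure D3:**
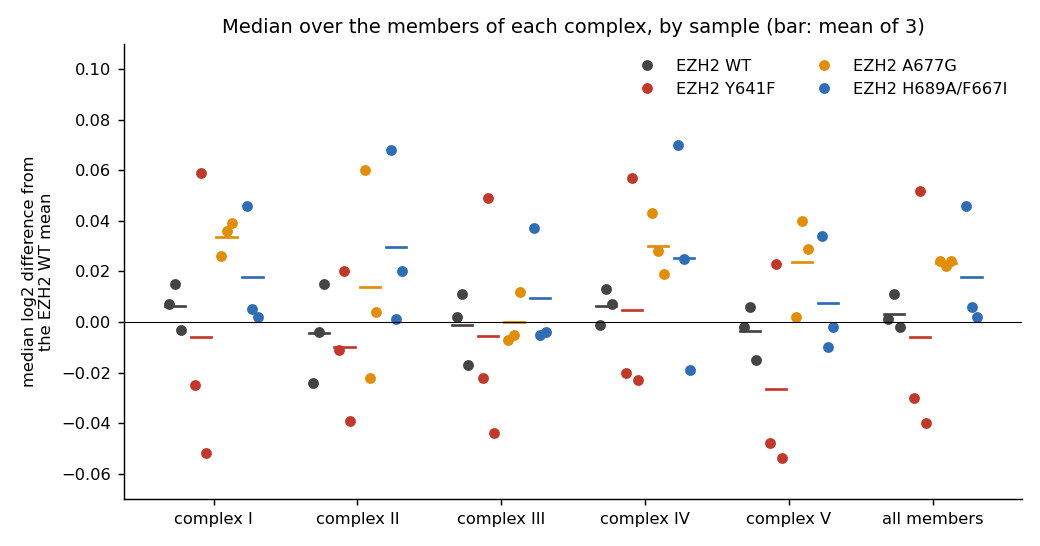
Median log2 difference from the EZH2 WT mean over the members of complexes I to V and over all 101 members tested, 1 point per sample, with a bar at the mean of the 3 replicates of each line. Replicate 2 of EZH2 Y641F is the red point above 0 in each complex, at 0.052 over all members, and the 2 other replicates of that line lie below 0.

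Differences in the catalytic cores were small. The 7 nuclear core subunits of complex I had log2 fold changes from -0.12 to 0.06 with Y641F, -0.04 to 0.05 with A677G and -0.06 to 0.10 with H689A/F667I. SDHA and SDHB, the flavoprotein and the iron-sulfur protein of complex II, ranged from -0.08 to 0.03 over the 3 lines. CYC1 and UQCRFS1, cytochrome c1 and the Rieske protein of complex III, ranged from -0.05 to 0.04. The F1 subunits ATP5A1, ATP5B, ATP5C1 and ATP5D ranged from -0.11 to 0.04. CYCS was at 384, 404 and 416 CPM in EZH2 WT, 370, 392 and 396 CPM with Y641F, 384, 390 and 381 CPM with A677G and 391, 399 and 406 CPM with H689A/F667I, and all mutant lines overlapped EZH2 WT. None of these 16 genes was called in any comparison with EZH2 WT.

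Where a subunit has alternative genes, their levels per transcript length often lay far apart. NDUFA4 had 57.7 CPM per kb and NDUFA4L2 0.513 CPM per kb. UQCRH had 487 CPM per kb and its near-identical copy UQCRHL 4.93 CPM per kb, although reads shared between these copies could be assigned to either. The 3 genes for subunit c of the ATP synthase ring, which yield the same mature protein, were all expressed, with 197 CPM per kb for ATP5G1, 164 CPM per kb for ATP5G2 and 332 CPM per kb for ATP5G3. Across lines their log2 fold changes ranged from -0.10 to 0.07. COX6B1, the ubiquitous form of that subunit, had 245 CPM per kb, with log2 fold changes of 0.00386, 0.05 and 0.00152 in the 3 lines. Its paralogue COX6B2 had 17, 10 and 16 counts in EZH2 WT and 19, 15 and 17 in EZH2 Y641F, and 0 in all replicates of EZH2 A677G and of the LOF line. It was therefore the member left out of the tests. Among all genes, 134 shared this absence from every A677G replicate and 100 that from every LOF replicate, while 0 genes were at 0 in exactly 2 replicates of a line. The cause was not tested, and no fold change is given for COX6B2.

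Between the GOF lines, EZH2 Y641F minus EZH2 A677G, 0 of 101 members were called, where 0.0841% of all genes were, and limma voom, DESeq2 and the exact test also gave 0. The members' median was -0.023, with 72 of 101 genes lower in EZH2 Y641F, and 10 members passed an unadjusted p of 0.05, all lower, against 6.91% of all genes. The smallest p belonged to NDUFS3, a core subunit of the hydrophilic arm of complex I, at 63.6, 73.2 and 64.5 CPM in EZH2 Y641F and 74.2, 70.3 and 76.5 CPM in EZH2 A677G. Replicate 2 of EZH2 Y641F lay within the EZH2 A677G range, and the log2 difference was -0.135 (SE 0.0498, adjusted p = 0.573, edgeR). NDUFB7, an accessory subunit, came next with -0.13 (adjusted p = 0.601, edgeR), at 76.7, 90.8 and 76.7 CPM against 86.7, 87.5 and 92.9 CPM. Replicate 2 of EZH2 Y641F was again the high sample. The third was ATP5D, the delta subunit of F1, with -0.13 (adjusted p = 0.605, edgeR), at 48, 47.2 and 47.6 CPM against 50, 52.5 and 53.5 CPM without overlap. Without replicate 2 of EZH2 Y641F, NDUFB7 was called, the median was -0.05 and 21 members passed an unadjusted p of 0.05. Without replicate 3 of that line the median was -0.00821 and 2 members passed, and without replicate 3 of EZH2 A677G 2 passed as well, with a median of -0.0223. Of all genes, 0.4% were called without replicate 2 of EZH2 Y641F. The share of all genes at an unadjusted p under 0.05 was not counted in these fits.

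With the mean of both GOF lines set against the LOF line, 12.6% of all genes were called, 544 higher and 1248 lower, and again 0 of 101 members. DESeq2 and limma voom each called 1 member, SDHB, where they called 12.9% and 14.7% of all genes. Over 25 alternatives the SDHB difference ranged from -0.119 to -0.0355, with adjusted p from 0.0116 to 0.514 by the test of each setting. At an unadjusted p under 0.05 there were 11 members, 3 higher and 8 lower, against 23.8% of all genes. The members' median was -0.003, and 97 of 101 differences were under 0.1 in size. SDHB (chr1:17018664-17054032, minus strand) was at 115, 115 and 108 CPM in EZH2 Y641F, 111, 110 and 107 CPM in EZH2 A677G and 122, 115 and 120 CPM in the LOF line, with 115, 115 and 118 CPM in EZH2 WT. The EZH2 A677G samples and replicate 3 of EZH2 Y641F were the lowest, the GOF and LOF samples met at 115 CPM, and the log2 difference was -0.10 (SE 0.0345, adjusted p = 0.0575, edgeR). NDUFAF2, a complex I assembly factor, followed with 0.15 (SE 0.0532, adjusted p = 0.0622, edgeR), and NDUFA4L2 with 1.01 on the few counts given above (SE 0.388, adjusted p = 0.0838, edgeR). These 3 genes were named after their values were seen. Without replicate 1, 2 or 3 of EZH2 Y641F the count of called members was 4, 3 and 1, and without replicate 1 of EZH2 A677G it was 1. The shares of all genes called in these fits were 14.8%, 13.3%, 11.6% and 10.8%.

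**Figure D4:**
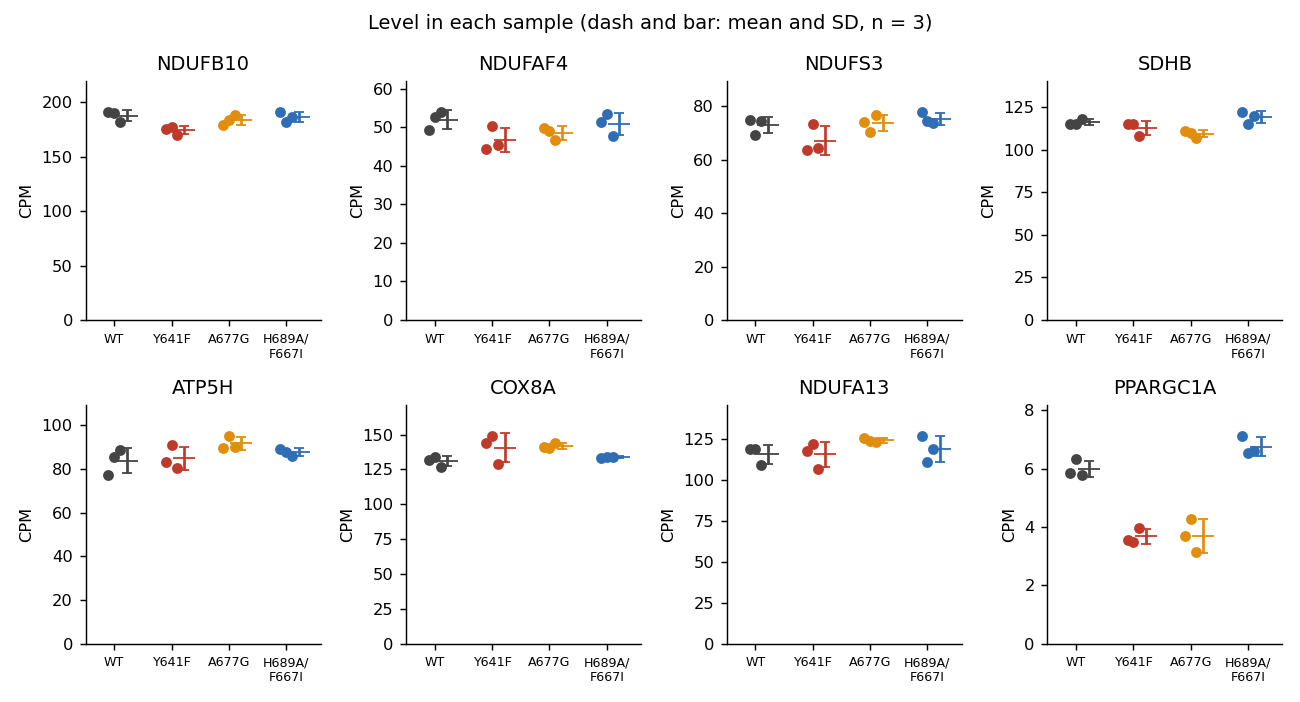
Level in CPM, from 0, of 7 members and of the coactivator gene PPARGC1A in each of the 3 replicates of the 4 lines, with mean and SD (n = 3) beside the points. NDUFB10 in EZH2 Y641F lies at 170 to 177 CPM, under the 182 to 191 CPM of EZH2 WT, and the PPARGC1A samples of both GOF lines, at most 4.28 CPM, lie below those of the other lines.

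The count of 0 called members changed with the processing setting, and the cause was not tested. When the trend of each sample with transcript GC content was removed, 13 members were called in EZH2 A677G, all higher, with log2 fold changes between 0.12 and 0.19. They included ATP5G2, ATP5H, ATP5I, COX14, COX15, COX6B1, COX7A2, COX8A, NDUFA11, NDUFA13, NDUFAF3 and UQCRQ. In EZH2 Y641F 3 members were called and in the mean of both GOF lines against the LOF line 6, all of them higher. Of all genes tested, 15%, 10.5% and 21.3% were called in the same setting for EZH2 A677G, EZH2 Y641F and that mean. The same step moved the median log2 fold change of all genes from 0.00454 to 0.0557 in EZH2 A677G, and the share of lower genes among all those called from 75.8% to 39.1%. In EZH2 Y641F that share went from 72.8% to 46.8%, and in the comparison of the GOF lines with the LOF line from 69.6% to 36%. When the median gene was put back at 0 after the trend was removed, an alternative chosen after seeing the data, 1 member was called in EZH2 A677G (COX8A, higher), 1 in EZH2 Y641F (NDUFAF4, lower) and 2 in the mean of both GOF lines against the LOF line (NDUFAF2, higher, and NDUFA5, lower). With the length trend removed in the same way, the recentred counts were 2, 3 and 8, all lower. Of all genes tested, 9.23%, 8.2% and 13.7% were called with the GC trend recentred. With the length trend recentred these shares were 10.3%, 9.14% and 14.5%, in the same order. The members' median transcript length was 799 bases against 2638 over all genes tested, and their median GC content was 48% against 49%.

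**Figure D5:**
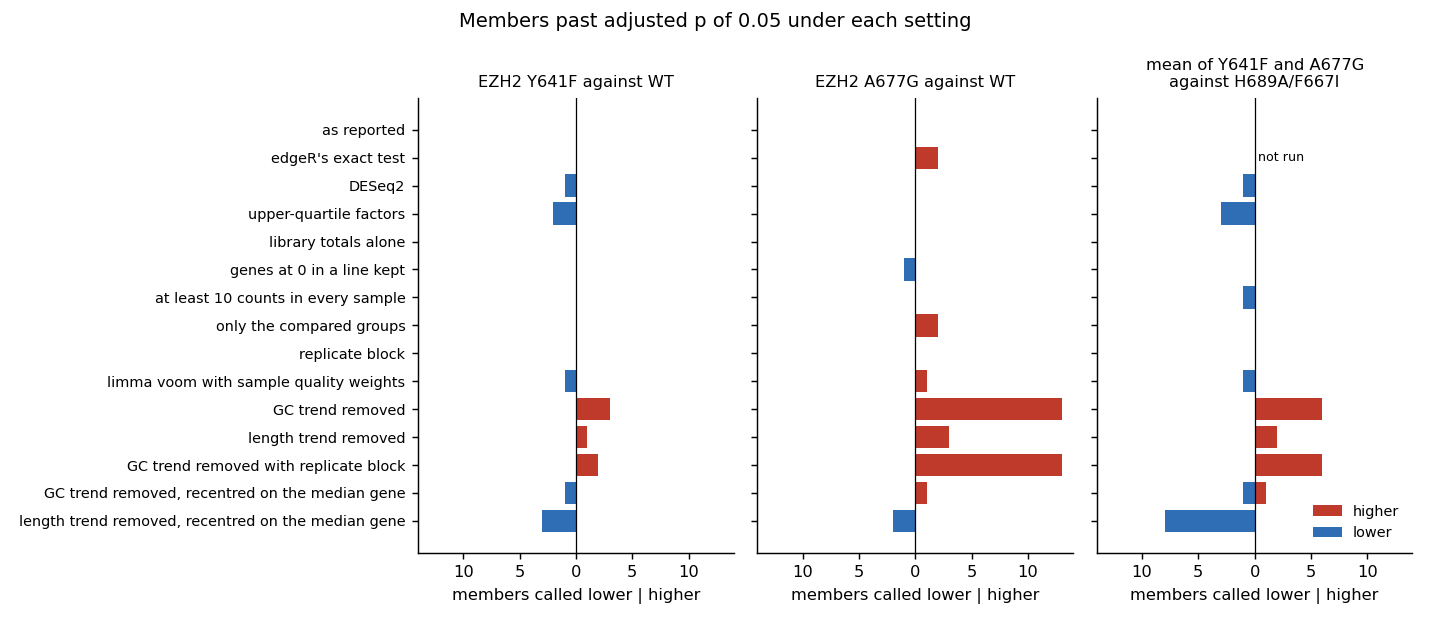
Number of members past an adjusted p of 0.05 under each processing setting, higher to the right in red and lower to the left in blue, for EZH2 Y641F and EZH2 A677G against EZH2 WT and for the mean of both against EZH2 H689A/F667I. The top row, as reported, holds 0 in each panel, and the longest bars are the 13 members higher in EZH2 A677G with the GC trend removed.

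Other genes of the pathway came from lists of genes that the symbol rule does not reach. The table held 0 of the 13 subunit genes of mitochondrial DNA, which were not analysed here. Of complex I, III and IV assembly factors with other names, 10, 6 and 17 were tested, as were 3 subunits with other names. In the Y641F, A677G and LOF lines 0 of these 36 were called by edgeR's quasi-likelihood test, against 7.68%, 8.55% and 0.301% of all genes. At an unadjusted p under 0.05 there were 1, 2 and 1 of them, where 19.2%, 20.4% and 8.3% of all genes passed. Among 4 assembly factors of complex V, TMEM242 was higher in EZH2 A677G, at 20.7, 24.2 and 22 CPM against 17.3, 18.1 and 20 CPM in EZH2 WT (log2 fold change 0.27, SE 0.0752, adjusted p = 0.0162, edgeR). In EZH2 Y641F TMEM242 was at 20.1, 22.5 and 21.5 CPM, also above every EZH2 WT sample, but was not called (log2 fold change 0.211, adjusted p = 0.0832, edgeR). The LOF samples, at 20.9, 19.8 and 20.1 CPM, overlapped EZH2 WT (log2 fold change 0.138, adjusted p = 0.668, edgeR). The call in EZH2 A677G was lost without replicate 1 or 2 of EZH2 WT or replicate 2 of EZH2 A677G, with adjusted p of 0.122, 0.077 and 0.156.

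Of 14 regulators of mitochondrial gene expression, PPARGC1A was lower in EZH2 Y641F, PPARGC1A and PPARGC1B were lower in EZH2 A677G, and 0 were called in the LOF line by edgeR. Of all genes, 7.68%, 8.55% and 0.301% were called in these lines. At an unadjusted p under 0.05 there were 2, 3 and 2 regulators, where 19.2%, 20.4% and 8.3% of all genes passed. PPARGC1A encodes PGC-1alpha, a coactivator known for driving mitochondrial biogenesis through NRF1, the GABP factors and estrogen-related receptors. It was at 5.85, 6.32 and 5.79 CPM in the control line, 3.57, 3.49 and 3.97 CPM with Y641F, 3.68, 4.28 and 3.13 CPM with A677G and 7.12, 6.52 and 6.61 CPM in the LOF line. All 6 GOF samples were below all samples of the other lines. Its log2 fold change was -0.70 with Y641F (SE 0.138, adjusted p = 0.000582, edgeR) and -0.69 with A677G (SE 0.138, adjusted p = 0.000587, edgeR), and the interval in the LOF line ran from -0.10 to 0.44. PPARGC1B, a coactivator of the same family, was at 50.7, 50.2 and 47.3 CPM in EZH2 WT and 43.4, 42.2 and 42.1 CPM with A677G. The log2 fold change was -0.215 (SE 0.0547, adjusted p = 0.00779, edgeR), and the call was lost without replicate 1 of EZH2 WT (adjusted p = 0.0504) and with the length trend removed (adjusted p = 0.0543). NRF1 and TFAM had log2 fold changes of -0.00725 and -0.04 in EZH2 Y641F and 0.04 and -0.03 in EZH2 A677G, and were not called.

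The promoters of the members carry motifs of factors that are known to act on respiratory genes. RefSeq promoter windows on GRCh38.p14, 250 bases before to 50 after the start, were matched for 83 of 102 members (81.4%) and for 77.3% of genes tested, and the shares refer to these. On either strand, the NRF1 core CGCATGCG was found in 13 members, 15.7% against 3.84% of all genes tested. The ETS core CCGGAAG, which GABP factors can bind, was in 25 members, 30.1% against 18.7%, and the YY1 core AAGATGG in 17, 20.5% against 7.47%. GGGCGG, the core bound by SP1, was in 59% of members and 70.6% of all genes, and TATAAA in 8.43% and 5.51%. The median GC content of the 250 bases before the start was 61.6% in members and 65.2% over all genes. Such a match describes letters in the window and is not evidence of binding.

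To show these motifs in place, in genes chosen after the matches were seen, the 100 bases before the start of 4 members follow, 5′ to 3′ on the gene's strand, with the NRF1, ETS or YY1 core in capitals. NDUFA13 (chr19:19516125-19516224, plus strand) and NDUFS3 (chr11:47578974-47579073, plus strand) are members followed above and hold an ETS core that begins 10 and 83 bases before the start. NDUFS7 (chr19:1383807-1383906, plus strand) shows an NRF1 core 74 bases before it. ATP5J (chr21:25735055-25735154, minus strand), a peripheral stalk subunit, shows a YY1 core and an ETS core, 57 and 30 bases before it.
NDUFA13: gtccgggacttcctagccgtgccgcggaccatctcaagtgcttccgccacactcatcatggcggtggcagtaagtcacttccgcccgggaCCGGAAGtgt
NDUFS3: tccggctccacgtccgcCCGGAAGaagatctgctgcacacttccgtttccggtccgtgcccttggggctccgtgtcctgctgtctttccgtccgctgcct
NDUFS7: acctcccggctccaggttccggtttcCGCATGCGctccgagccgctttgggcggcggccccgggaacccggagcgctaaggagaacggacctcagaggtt
ATP5J: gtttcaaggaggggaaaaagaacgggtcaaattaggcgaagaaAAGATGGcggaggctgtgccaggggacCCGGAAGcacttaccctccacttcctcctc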

How the data were processed

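RNA was sequenced from 3 biological replicates of each of 4 lines, with libraries from a stranded mRNA kit. Per the labels, the submitters' processing used Trim Galore 0.6.5, STAR 2.7.9a, Salmon 1.2.0 and edgeR 3.16 on GRCh38. The deposited table holds whole-number counts per gene symbol that the authors had not normalized. The step from Salmon estimates to whole counts and the filter on genes are not given in the sources used here. Genes at 0 in all replicates of a line were left out (175 genes). In R 4.3.3, edgeR 4.0.16 scaled the libraries by TMM and fitted all 12 samples together with 1 coefficient per line, comparing lines by its quasi-likelihood test. Benjamini-Hochberg adjustment ran over 14263 genes. CPM are TMM-normalized. Standard errors were taken from the log2 fold change and the F statistic. Positions, lengths and GC content (median over basic transcripts) came from GENCODE 44, which is later than the annotation of the study. Genes were named if called, as catalytic core, paralogues or extremes of level, if the study names them as complex I subunits, or for the 3 smallest p between the GOF lines, and other members with small p were added after their values were seen. The members and lists were chosen with earlier results of these data known. Alternatives were edgeR's exact test, DESeq2, limma voom, other normalization and filters, the compared groups alone, GC and length trends, the replicate block and each replicate left out.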

Additional observations from a re-analysis of the deposited data

Results flagged for a closer look

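PPARGC1A, the gene for PGC-1alpha, differed between the GOF lines and the LOF line by the test of that difference. Both GOF lines averaged, minus the LOF line, gave -0.87 on the log2 scale (SE 0.116, adjusted p = 7.35e-07, edgeR), with all 6 GOF samples below all 3 LOF samples. Over the alternatives the difference ranged from -0.928 to -0.808, with adjusted p between 3.94e-11 and 5.88e-05. The gene has few reads, from 114 to 263 counts per sample. Of the 101 members tested, 0 differed in this comparison or between EZH2 Y641F and EZH2 A677G by edgeR's quasi-likelihood test, and 11 and 10 passed an unadjusted p of 0.05. By DESeq2 the counts were 1 and 0, and by limma voom 1 and 0. Of all genes, 12.6% and 0.0841% were called by edgeR, and 23.8% and 6.91% passed the unadjusted p. DESeq2 called 12.9% and 0.133% of all genes, and limma voom 14.7% and 0.0771%.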

How the results depend on the processing

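Against the 0 members called in each comparison, the alternatives gave the following counts. In EZH2 Y641F minus EZH2 WT there was 1 member with DESeq2, 2 with upper-quartile factors, 1 with limma voom, 3 with the GC trend removed, 1 with the length trend removed, 2 with the GC trend removed and the replicate block, 1 and 3 with the GC or length trend recentred, and 0 to 3 with 1 replicate left out. The shares of all genes called were, in the same order, 8.36%, 7.87%, 7.52%, 10.5%, 11.8%, 10.5%, 8.2% and 9.14%. With 1 replicate left out they ran from 4.93% to 8.64%. In EZH2 A677G minus EZH2 WT there were 2 with the exact test, 1 with genes at 0 kept (COX6B2), 2 with only the compared groups, 1 with limma voom, 13 with the GC trend removed, 3 with the length trend removed, 13 with the GC trend removed and the replicate block, 1 and 2 with these trends recentred, and 0 to 1 with 1 replicate left out. Here the shares of all genes were 13%, 9.66%, 11.3%, 12.7%, 15%, 16.4%, 15.4%, 9.23% and 10.3%, and 5.78% to 10.2% with 1 replicate left out. In the LOF line and in EZH2 Y641F minus EZH2 A677G there was 1 with genes at 0 kept (COX6B2 in both), and in the latter 0 to 1 with 1 replicate left out. In the mean of both GOF lines minus the LOF line there was 1 with DESeq2, 3 with upper-quartile factors, 1 with at least 10 counts in every sample, 1 with limma voom, 6 with the GC trend removed, 2 with the length trend removed, 6 with the GC trend removed and the replicate block, 2 and 8 with these trends recentred, and 0 to 4 with 1 replicate left out. The exact test was not run for that mean.

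The members' median turned to 0.035 in EZH2 Y641F with the GC trend removed and to 0.0347 with the replicate block added. In EZH2 A677G it was 0.076 and 0.0761, and -0.0109 with the length trend recentred. In the mean of both GOF lines minus the LOF line it was 0.0496 and 0.0497, and 0.0269 with the length trend removed. Removing a trend without recentring moved the median of all genes upwards in the GOF lines, while the cause of the other changes was not tested. NDUFA13 in EZH2 Y641F, at 0.00218, turned to -0.012 with upper-quartile factors, -0.000515 with at least 10 counts, -0.0191 with limma voom and -0.03 with the length trend recentred, and ranged from -0.0389 to 0.0543 with 1 replicate left out. NDUFB1 in EZH2 A677G, at 0.0038, turned to -0.016 with upper-quartile factors, -0.0031 with library totals alone, -0.00231 with at least 10 counts, -0.00112 with limma voom and -0.0443 with the length trend recentred, and ranged from -0.0297 to 0.0273 with 1 replicate left out. In the LOF line these ranges were -0.00943 to 0.0891 for NDUFA13 and -0.0139 to 0.0373 for NDUFB1.

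Over all genes, replicate numbers did not pair the samples. There the deviations of same-numbered samples correlated between -0.0557 and 0.0501 over 18 pairs, with 0 over 0.1. Over the members alone the correlations were wider. They ran from -0.368 to 0.551 for same-numbered samples and from -0.539 to 0.623 for samples of different number. With the replicate block alone, 0 members were called in each comparison. Depth limits the genes with few counts, NDUFA4L2, COX20 and SDHAF4. Nothing beyond the 12 libraries was available to separate spread between cultures from technical spread, and p-values measure the spread between these samples. Each EZH2 form was present in 1 line only. The effect of a mutation therefore cannot be told apart from other differences between lines. Over all genes, the calls in EZH2 A677G went from 1219 to 1849 with the exact test, and to 2141, 2345 and 2193 with the GC trend, the length trend, or the GC trend and the replicate block. In EZH2 Y641F they went from 1095 to 1689 with the length trend removed. In the LOF line they went from 43 to 147 with the exact test, 169 with genes at 0 kept, 86 with the compared groups alone and 99 with limma voom. Between the GOF lines they went from 12 to 19 with DESeq2 and 178 with genes at 0 kept, and for their mean minus the LOF line from 1792 to 3034, 3094 and 3062 with these trends. With 1 replicate left out, the calls over all genes changed by over 1.5 times in 3 comparisons. In EZH2 Y641F there were 703 without replicate 2 of EZH2 WT. In the LOF line there were 12, 17 and 25 without replicate 1, 2 or 3 of EZH2 WT, 11 and 19 without its own replicate 1 or 2, and 65 without replicate 1 of EZH2 Y641F. Between the GOF lines there were 57 and 21 without replicate 2 or 3 of EZH2 Y641F. The members at an unadjusted p under 0.05 ranged from 4 to 12 in EZH2 Y641F, 2 to 11 in EZH2 A677G, 1 to 6 in the LOF line, 2 to 21 between the GOF lines and 5 to 16 for their mean minus the LOF line. The share of all genes at that threshold was not counted for these fits.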
